A study of Mus musculus with 9 samples.

Results

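Replication of the genome in S phase needs origins to be licensed, a helicase to open the duplex, polymerases to copy it, deoxynucleotides to build with and new histones to wrap the daughter strands. This account covers 39 mouse genes of that programme, taken by gene symbol from a table of 18738 genes, and all 39 were found and measured. They were grouped by role into 14 genes of licensing and the replicative helicase, 10 of the polymerases and the fork, 6 of nucleotide supply, 4 of chromatin assembly and 5 of S-phase entry. The libraries were 9 RNA-seq libraries of cardiomyocytes, the contractile cells of the heart, isolated on postnatal day 0 from wild-type C57BL/6J pups. From conception to birth the mothers ate 1 of 3 randomly allotted diets: normal (ND), slight high-fat (sHFD) or high-fat (HFD). Each diet gave 3 libraries. The pups differed by their mothers' diet alone in the labels. The series ties the comparison to a question about reduced cardiomyocyte proliferation.

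Licensing loads the MCM2-7 ring onto DNA with the help of Cdc6 and Cdt1, and CDC45 and GINS join that ring to make the active helicase. Cyclin E and the E2F transcription factors control entry into S phase, and many replication genes are classical E2F targets. Cardiomyocytes of the newborn mouse still divide and leave the cell cycle within days of birth, so these transcripts are commonly read as a measure of how many cells are in S phase.

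Values are TPM, a unit of transcript share scaled to gene length and to the library total, so that levels of different genes can be set side by side. Depth is unknown, since TPM keeps no read number. The libraries correlated with each other at 0.966 to 0.995 (Pearson's r of log2(TPM + 1) over all genes), and 0 pairs were identical. All 10 cardiomyocyte markers examined, among them Tnnt2, Myh6 and Actn2, were above 0 in every library, with summed levels of 21200 to 35200 TPM in ND, 36200 to 45400 TPM in sHFD and 26300 to 31600 TPM in HFD. Markers of other heart cells were also present: 8 fibroblast genes summed to 7390 to 11200 TPM and 8 endothelial genes to 2890 to 4410 TPM over the 9 libraries. The share of the replication transcripts that came from these cells was not tested. In whole-library RNA, fewer cells in S phase and less RNA of these genes per cell cannot be told apart.

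HFD cardiomyocytes held lower levels of the programme than sHFD cardiomyocytes, while ND libraries spread over both. The 39 genes summed to 870, 930 and 747 TPM in HFD replicates 1 to 3, to 1040, 1550 and 1000 TPM in sHFD and to 866, 1340 and 1070 TPM in ND. HFD therefore lay below all sHFD libraries, while ND replicate 1 sat inside the HFD range. Within ND, replicate 1 was the lowest library in 32 of the 39 genes and replicate 2 the highest in 34. sHFD replicate 2 was the highest library of its diet in 38 genes and the highest of all 9 in 33, and HFD replicate 3 was the lowest of all 9 in 24. The replication genes thus moved together from library to library within a diet, as well as between diets.

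**Figure D1:**
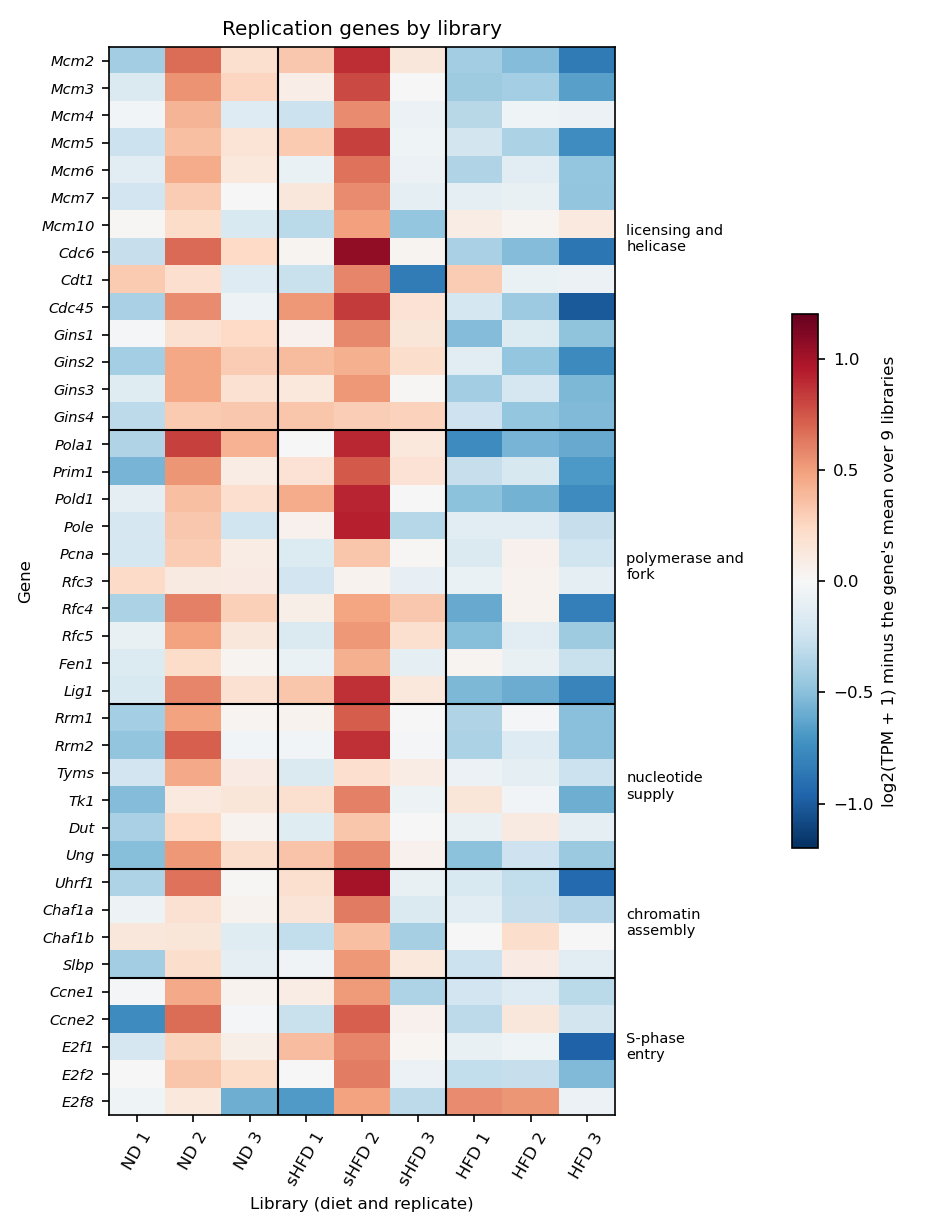
Level of each of the 39 replication genes (rows, in role groups) in each of the 9 libraries (columns), as log2(TPM + 1) minus the gene's mean over the libraries; red is above that mean and blue below it. ND replicate 2 and sHFD replicate 2 are red in most rows and HFD replicate 3 is blue in most, the lowest of all 9 libraries in 24 genes.

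Against sHFD, 14 of the 39 genes were lower in HFD and 0 were higher by limma at an adjusted p of 0.05. They were Mcm2, Mcm3, Mcm5, Cdc6, Cdc45, Gins1, Gins2, Gins4, Pola1, Prim1, Pold1, Rfc4, Lig1 and Ung. That is 35.9% of the genes, where 23.9% of the 13655 genes tested were lower and 10.3% higher. The libraries of these diets did not overlap in 21 of the 39, all lower in HFD, a share of 53.8% against 34.7% of all genes, and 0 were higher without overlap, against 16.6%. At an unadjusted p under 0.05 there were 22 genes, and 45.6% of all genes. The median log2 fold change of the 39 was -0.55 and that of all genes -0.16. When libraries were scaled to a common median ratio, 10 genes stayed lower, 25.6% against 19.2% of all genes, with Rfc4, Prim1, Ung and Gins2 lost. Under quantile normalization 7 stayed lower, 17.9% against 17.6% of all genes, so that the share called was then no larger than that of all genes. Over all genes these scalings turned 1406 higher and 3259 lower calls into 2597 and 2622, and into 2401 and 2407.

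Single libraries weighed on that count. It was 4 genes without sHFD replicate 2 (Gins4, Pold1 and Lig1 lower, and E2f8 higher). Omitting HFD replicate 1, 2 or 3 left 9, 7 or 4 genes. Lower calls then made up 23.1%, 17.9% or 10.3% of the replication genes, against 15.9%, 14.3% or 22.4% of all genes. Without sHFD replicate 2 the shares were 7.69% and 15.2%. The replication share thus fell below that of all genes without HFD replicate 3 or sHFD replicate 2. It stayed above that of all genes when any other library was left out. Lig1 and Pold1 were lower under each of the 16 alternatives, including all 9 that left out a library.

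Against ND, 1 of the 39 genes, Lig1, was lower in HFD and 0 were higher, with 15 at an unadjusted p under 0.05, as were 29.8% of all genes. Lower calls made up 2.56% of the 39 and 9.59% of all genes, and higher calls 1.28% of all genes. The 175 higher and 1309 lower calls over all genes became 668 and 996 under median-ratio scaling and 427 and 637 under quantile normalization, and Lig1 was lost under both. The ND and HFD libraries did not overlap in 13 genes, all lower in HFD, or 33.3% against 22.9% of all genes. Of the log2 fold changes 34 were below 0, with a median of -0.42 against -0.14 for all genes. Median-ratio scaling and quantile normalization each left 29 below 0, with medians of -0.26 and -0.21 where all genes stood at 0.01 and 0.00. Without ND replicate 1, 14 of the 39 were lower, 35.9% against 20.9% of all genes. The added genes were Mcm2, Mcm3, Mcm5, Cdc6, Gins2, Gins3, Gins4, Pola1, Prim1, Pold1, Rfc4, Rfc5 and Ung. The HFD libraries serve both comparisons, which are therefore not independent.

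Between sHFD and ND, 0 of the 39 genes passed limma's test, and 0 reached an unadjusted p under 0.05. Of all genes 0.00732% were called and 7.36% reached an unadjusted p under 0.05. The libraries did not overlap in 1 of the 39, Rfc3, lower in sHFD, and 4.9% of all genes were lower without overlap. The log2 fold changes ran from -0.29 for Cdt1 to 0.47 for Cdc45, and 31 of 39 were above 0. Their median was 0.15, and it was -0.05 without ND replicate 1 and -0.07 without sHFD replicate 2, so its sign rested on either library.

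**Figure D2:**
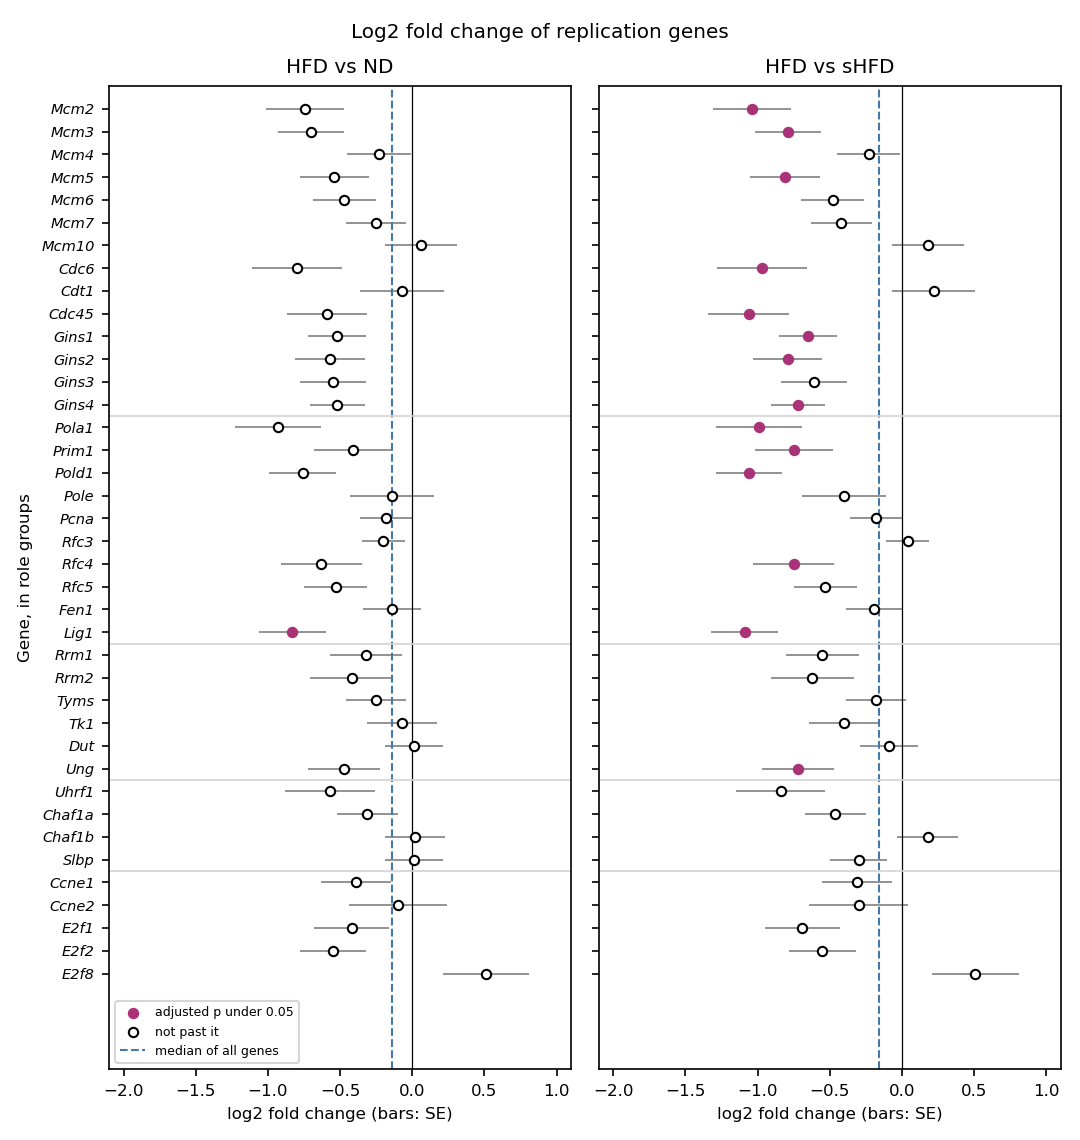
Log2 fold change of each replication gene on the log2(TPM + 1) scale (points) with its standard error (bars), for HFD against ND (left) and HFD against sHFD (right); filled points passed an adjusted p of 0.05. Lig1 is the filled point on the left, 14 points are filled on the right, and the dashed line is the median of all genes tested (-0.14 and -0.16).

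Licensing and helicase genes held 8 of the 14 genes lower in HFD than in sHFD. Mcm6 was the most abundant at a mean of 64.8 TPM over the 9 libraries and Cdc6 the least at 3.46 TPM. The 6 subunits of the MCM2-7 ring had log2 fold changes of -1.04 to -0.23 against sHFD, and differences between subunits were not tested. Mcm2 was 24.65, 53.40 and 38.18 TPM in ND, 41.77, 62.23 and 36.60 TPM in sHFD and 24.68, 22.94 and 18.06 TPM in HFD. It fell in HFD against sHFD (log2 -1.04, SE 0.27, adjusted p = 0.0108), but ND replicate 1 lay level with HFD, and against ND its log2 difference was -0.74 (adjusted p = 0.0845). Mcm3 was 36.59, 60.79 and 49.76 TPM in ND, 43.98, 72.68 and 41.32 TPM in sHFD and 30.51, 31.08 and 25.98 TPM in HFD. HFD lay below every other library, and the fall against sHFD was -0.79 (SE 0.23, adjusted p = 0.0203). Mcm5 was 24.77, 38.64 and 33.53 TPM in ND, 37.37, 53.66 and 28.78 TPM in sHFD and 25.46, 22.77 and 17.37 TPM in HFD, and fell by 0.81 on the log2 scale against sHFD (adjusted p = 0.021).

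The remaining ring subunits did not pass. Mcm6 was 57.68, 86.10 and 68.78 TPM in ND, 59.48, 99.39 and 59.72 TPM in sHFD and 48.71, 57.62 and 45.46 TPM in HFD. Its HFD libraries lay below all others, by a narrow margin from ND replicate 1, and its log2 difference from sHFD was -0.48 (adjusted p = 0.0987). Mcm7 and Mcm4 differed from sHFD by -0.42 and -0.23 (adjusted p = 0.13 and 0.44), with overlapping libraries. The ratio of Mcm4 to Mcm2, which a scaling factor for a library cannot alter, was 0.723 to 0.946 in sHFD, 1.16 to 1.91 in HFD and 1.44, 0.91 and 0.855 in ND. It was chosen after the values were seen and was not tested.

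Of the loading factors, Cdc6 fell in HFD against sHFD and Cdt1 did not pass. Cdc6, an ATPase that recruits the ring to the origin complex, was 2.39, 5.59 and 3.86 TPM in ND, 3.22, 7.62 and 3.20 TPM in sHFD and 2.15, 1.88 and 1.26 TPM in HFD. Its HFD libraries were the 3 lowest, and the difference was -0.97 against sHFD (SE 0.31, adjusted p = 0.0314) and -0.80 against ND (adjusted p = 0.108). Under quantile normalization the call against sHFD was lost, and 11 of the 16 alternatives kept it. Cdt1, which brings MCM2-7 to Cdc6, was 27.85, 21.13 and 21.28 TPM in HFD, within the ND range of 20.07 to 28.21 TPM, and spread from 12.08 to 34.27 TPM in sHFD. Mcm10, which helps the helicase to start, was 6.10, 5.84 and 6.26 TPM in HFD and 3.83 to 8.42 TPM in sHFD, a log2 difference of 0.18 (adjusted p = 0.599).

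Cdc45 and the GINS genes, which complete the helicase, fell against sHFD in 4 of 5 cases. Cdc45 was 7.23, 15.04 and 9.38 TPM in ND, 14.54, 18.29 and 11.15 TPM in sHFD and 8.32, 7.00 and 4.39 TPM in HFD. HFD lay below sHFD but overlapped ND through ND replicate 1 (log2 -1.06, SE 0.28, adjusted p = 0.0134 against sHFD, and -0.59, adjusted p = 0.182 against ND). Gins4, the most abundant GINS subunit, was the steadiest within sHFD at 36.14, 35.10 and 34.69 TPM, with 22.68, 35.61 and 35.79 TPM in ND and 23.76, 20.34 and 19.40 TPM in HFD. It fell by 0.72 against sHFD (SE 0.19, adjusted p = 0.0134). Gins2 was 12.33, 23.37 and 20.84 TPM in ND, 22.01, 22.80 and 19.44 TPM in sHFD and 15.14, 11.87 and 9.41 TPM in HFD (log2 -0.79 against sHFD, adjusted p = 0.0236). Gins1 was 10.63, 12.42 and 13.01 TPM in ND, 11.26, 16.66 and 12.13 TPM in sHFD and 7.24, 9.60 and 7.46 TPM in HFD, below every other library (log2 -0.65 against sHFD, adjusted p = 0.0274). The Gins2 call was lost under both scalings and the Gins1 call under quantile normalization. They were kept in 10 and 11 of the 16 alternatives. Gins3, at 2.09 to 2.91 TPM in HFD and 3.56 to 5.47 TPM in sHFD, narrowly missed (log2 -0.61, adjusted p = 0.0552). The 4 GINS genes had like fold changes against ND, from -0.57 to -0.52, none of which passed.

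Since E2F factors are known regulators of this programme, the RefSeq promoters of GRCm38.p6 (250 bases before to 50 after each start) were searched for TTTCCCGC, TTTGGCGC, TTTCGCGC and TTTGCCGC on both strands. Of the 39 genes 33 had a promoter in the table and 13 of these held a match, or 39.4%, against 4.62% of 10871 tested genes with a promoter. Matches were found in 7 of 10 licensing and helicase promoters, 4 of 9 of the polymerases and fork, 0 of 6 of nucleotide supply, 1 of 4 of chromatin assembly and 1 of 4 of S-phase entry. Of the genes lower in HFD than in sHFD 6 of 11 had one, and of the other genes 7 of 22. The windows below are shown because their matches lie before the start that the promoter table uses and overlap no exon of the basic GENCODE annotation of GRCm38, for genes that fell (Mcm5, Cdc6, Pola1) and for 2 that did not pass (Mcm6, Uhrf1). The windows of Cdc6, Pola1 and Uhrf1 lie within RefSeq's span of the gene, which begins further upstream, so they precede 1 of the gene's starts and not all of them. Each reads 5′ to 3′ on the gene's strand, with the matched letters in capitals.
Mcm5 (chr8:75109326-75109397, + strand): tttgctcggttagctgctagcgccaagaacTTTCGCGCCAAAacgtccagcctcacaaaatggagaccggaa
Mcm6 (chr1:128359715-128359845, - strand): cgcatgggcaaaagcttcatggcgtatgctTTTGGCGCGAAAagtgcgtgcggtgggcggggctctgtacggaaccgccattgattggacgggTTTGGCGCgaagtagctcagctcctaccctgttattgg
Cdc6 (chr11:98907983-98908050, + strand): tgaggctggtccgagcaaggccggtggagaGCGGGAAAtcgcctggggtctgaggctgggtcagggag
Pola1 (chrX:93632256-93632323, - strand): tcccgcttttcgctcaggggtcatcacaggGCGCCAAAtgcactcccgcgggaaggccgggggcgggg
Uhrf1 (chr17:56304098-56304165, + strand): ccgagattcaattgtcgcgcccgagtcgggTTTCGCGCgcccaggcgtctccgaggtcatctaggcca
In Mcm5 and at the upstream site of Mcm6 a pair of matches on opposite strands overlap, so that 12 letters stand in capitals. Mcm5 and Mcm6 hold the same kind of match and differed in their call, and a match in these windows is a description of the sequence only.

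Polymerase and fork genes included Lig1, which had the largest fall of the 39 against sHFD. Lig1 (chromosome 7, 13277175 to 13311426, GRCm38.p6) encodes DNA ligase I, which seals Okazaki fragments. It was 27.00, 46.96 and 35.07 TPM in ND, 39.24, 57.34 and 33.86 TPM in sHFD and 21.00, 20.13 and 17.38 TPM in HFD. Every HFD library lay below every other library. The fall was -0.83 against ND (SE 0.23, adjusted p = 0.0368) and -1.09 against sHFD (SE 0.23, adjusted p = 0.00443). Against ND the adjusted p ran from 0.00628 to 0.122 over the 16 alternatives, 6 of which kept the call, and both scalings between libraries lost it. Pold1 (chromosome 7, 44532744 to 44548815), the catalytic subunit of the lagging-strand polymerase delta, was 17.32, 24.59 and 21.92 TPM in ND, 26.18, 36.45 and 19.00 TPM in sHFD and 13.16, 12.41 and 10.77 TPM in HFD. It too was lowest in the 3 HFD libraries, with a fall of -1.06 against sHFD (SE 0.23, adjusted p = 0.00488) and a difference of -0.76 against ND (SE 0.23, adjusted p = 0.0514).

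Pola1, the catalytic subunit of polymerase alpha, which lays down primers together with primase, was 5.60, 14.02 and 10.30 TPM in ND and 7.52, 14.92 and 8.27 TPM in sHFD. In HFD it was 4.02, 4.76 and 4.59 TPM, below every other library (log2 -0.99 against sHFD, SE 0.30, adjusted p = 0.0246, and -0.93 against ND, SE 0.30, adjusted p = 0.064). Its HFD values were close together while those of ND and sHFD spread widely. The call against sHFD was lost under quantile normalization, and 10 of the 16 alternatives kept it. Prim1, the primase catalytic subunit, was 12.33, 27.35 and 19.87 TPM in ND, 21.14, 31.72 and 21.10 TPM in sHFD and 15.20, 16.10 and 11.14 TPM in HFD (log2 -0.75 against sHFD, adjusted p = 0.0456). Its HFD libraries overlapped ND, and 5 of the 16 alternatives kept the call against sHFD.

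The polymerase of the leading strand and the sliding clamp did not pass. Pole, polymerase epsilon, was 7.98, 7.91 and 7.12 TPM in HFD, against 7.54, 11.29 and 7.29 TPM in ND and 9.18, 17.78 and 6.76 TPM in sHFD, with overlap on both sides. The ratio of Pole to Pold1 was 0.606 to 0.661 in HFD, 0.351 to 0.488 in sHFD and 0.333 to 0.459 in ND, so that HFD stood apart in a ratio that such a factor leaves as it is; it was chosen after the values were seen and was not tested. Pcna, the clamp, was the most abundant of the 39 genes at a mean of 154 TPM. It was 131.40, 188.58 and 161.91 TPM in ND, 136.04, 193.02 and 154.33 TPM in sHFD and 135.05, 158.25 and 129.45 TPM in HFD, overlapping in both comparisons (log2 -0.18 in each, adjusted p = 0.536 and 0.447). Fen1, the flap endonuclease, overlapped likewise (log2 -0.14 against ND and -0.19 against sHFD).

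The clamp loader, which opens Pcna to place it on DNA, was uneven in its calls, and differences between its subunits were not tested. Rfc4 was 10.42, 21.62 and 17.08 TPM in ND, 14.66, 19.71 and 17.62 TPM in sHFD and 8.80, 14.30 and 7.43 TPM in HFD. It passed against sHFD at the margin (log2 -0.75, SE 0.28, adjusted p = 0.0498), and 6 of the 16 alternatives kept the call. Rfc5 had a log2 difference of -0.53 from sHFD (adjusted p = 0.0746). Rfc3 was level, at 34.64, 37.79 and 33.86 TPM in HFD and 31.27, 37.94 and 34.37 TPM in sHFD (log2 0.04, adjusted p = 0.86).

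Nucleotide supply genes had log2 fold changes of -0.72 to -0.09 in HFD against sHFD, and 1 of the 6 passed, while Rrm1, Rrm2, Tyms, Tk1 and Dut did not. That gene was Ung, uracil-DNA glycosylase, counted in this group although it removes misincorporated uracil from DNA. It was 9.18, 19.87 and 15.80 TPM in ND, 17.40, 20.72 and 14.03 TPM in sHFD and 9.34, 11.25 and 9.64 TPM in HFD. Its fall against sHFD was -0.72 (SE 0.25, adjusted p = 0.0424), a call kept in 6 of the 16 alternatives. ND replicate 1 was again below the HFD libraries. Rrm1 and Rrm2 encode the subunits of ribonucleotide reductase, which makes deoxynucleotides. Rrm1 was 39.76, 74.47 and 54.54 TPM in ND, 54.62, 88.62 and 53.32 TPM in sHFD and 41.23, 52.65 and 37.37 TPM in HFD, and Rrm2 followed it; both lay below sHFD in every library without passing (log2 -0.55 and -0.62, adjusted p = 0.101 and 0.115). Tyms, thymidylate synthase, Tk1, thymidine kinase, and Dut, the dUTPase, overlapped between all diets. Dut stayed at 20.06, 23.16 and 19.77 TPM in HFD, 16.08, 25.41 and 22.05 TPM in ND and 19.21, 27.15 and 21.42 TPM in sHFD.

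None of the 4 chromatin assembly genes or the 5 S-phase entry genes passed limma's test in any comparison, although Uhrf1 and E2f1 came close. In HFD against sHFD 2 of each group reached an unadjusted p under 0.05, as did 45.6% of all genes. Uhrf1, which couples DNA methylation to the fork, was 20.84, 43.35 and 27.45 TPM in ND, 31.21, 55.41 and 25.46 TPM in sHFD and 23.85, 22.01 and 13.71 TPM in HFD. All HFD libraries lay below all sHFD libraries, and the fitted difference was -0.84 on the log2 scale (adjusted p = 0.0527). CAF-1 deposits histones behind the fork. Of its subunits, Chaf1a had a log2 difference from sHFD of -0.46 and Chaf1b of 0.18 (SE 0.21 each, adjusted p = 0.104 and 0.528). The difference between these subunits was not tested. Chaf1b was 22.40, 22.64 and 18.30 TPM in ND, 16.39, 26.31 and 15.16 TPM in sHFD and 20.31, 23.71 and 20.20 TPM in HFD. Slbp, the stem-loop binding protein of histone mRNAs, was 25.75, 40.45 and 32.24 TPM in ND, 33.81, 50.45 and 38.01 TPM in sHFD and 28.87, 37.35 and 31.66 TPM in HFD.

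Among the entry genes the E2F members leaned in opposite directions. E2f1, an activator, was 13.97, 19.63 and 17.03 TPM in ND, 21.11, 24.69 and 16.40 TPM in sHFD and 15.17, 15.55 and 7.76 TPM in HFD (log2 -0.69 against sHFD, adjusted p = 0.0521). E2f2, a second activator, was 5.75, 7.49 and 6.87 TPM in ND, 5.74, 9.33 and 5.40 TPM in sHFD and 4.50, 4.55 and 3.66 TPM in HFD, below every other library (log2 -0.55 against both diets, adjusted p = 0.119 for ND and 0.0745 for sHFD). E2f8, a repressor, was 13.36, 15.28 and 8.95 TPM in ND, 8.28, 19.83 and 10.97 TPM in sHFD and 21.06, 20.44 and 13.14 TPM in HFD, overlapping both (log2 0.51 in each comparison, adjusted p = 0.271 for ND and 0.198 for sHFD). Cyclin E1 (Ccne1), which activates Cdk2 at the start of S phase, was 7.06, 7.51 and 6.56 TPM in HFD and 8.28 to 11.98 TPM in ND, and Ccne2 overlapped in all diets.

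A list of 49 other replication genes placed the 39 in their complexes. In HFD against sHFD 13 of the 49 were lower and 6 higher, 26.5% and 12.2%, shares near those of all genes. Against ND 4 were lower and 1 higher, 8.16% and 2.04%, where 9.59% and 1.28% of all genes were. Between sHFD and ND 0 passed, with 0 at an unadjusted p under 0.05, which 7.36% of all genes reached. Pola2 (chromosome 19, 5940543 to 5964238), the partner of Pola1, was 22.42, 35.34 and 30.77 TPM in ND, 32.79, 42.63 and 29.95 TPM in sHFD and 13.78, 14.73 and 14.11 TPM in HFD. It fell against ND (log2 -0.98, SE 0.20, adjusted p = 0.0141) and against sHFD (log2 -1.23, SE 0.20, adjusted p = 0.00156), a larger fold change than any of the 39 showed. Rpa3, a subunit of the single-strand binding complex, was 21.40, 38.87 and 33.49 TPM in ND, 34.74, 32.63 and 35.08 TPM in sHFD and 14.85, 18.17 and 15.26 TPM in HFD. It fell by 0.88 against ND (adjusted p = 0.0221, lost under quantile normalization) and by 1.04 against sHFD (adjusted p = 0.00346). The clamp loader subunit Rfc2 and the RNase H2 subunit Rnaseh2a fell in both comparisons, by 0.72 and 0.69 against ND (adjusted p = 0.0394 and 0.043), both lost under either scaling, and by 0.83 and 0.82 against sHFD (adjusted p = 0.00866 and 0.00811). E2f3, a further activator, fell against sHFD by 1.12 (adjusted p = 0.00748).

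Some initiation factors moved the other way. Orc6 (chromosome 8, 85299632 to 85308279), the smallest subunit of the origin recognition complex, was 48.93, 27.37 and 31.21 TPM in ND, 24.36, 33.60 and 28.38 TPM in sHFD and 54.78, 61.51 and 60.05 TPM in HFD. It rose in HFD against sHFD (log2 1.02, SE 0.21, adjusted p = 0.004) and against ND (log2 0.74, SE 0.21, adjusted p = 0.0402). The call against ND was lost without the filter on low values, with only these diets in the fit or with the replicate number as a block. Orc5, of the same complex, was 12.88, 20.51 and 14.79 TPM in ND, 18.99, 23.33 and 23.18 TPM in sHFD and 8.35, 10.79 and 11.73 TPM in HFD, and fell against sHFD (log2 -1.02, SE 0.21, adjusted p = 0.004). Dbf4, the regulatory subunit of the kinase that fires licensed origins, was 34.85, 21.75 and 20.25 TPM in ND, 14.52, 23.70 and 19.00 TPM in sHFD and 36.75, 52.73 and 39.48 TPM in HFD, above every other library. It rose by 1.14 against sHFD (SE 0.24, adjusted p = 0.00429) and differed from ND by 0.75 (adjusted p = 0.0602). Its catalytic partner Cdc7, named after its values were seen, fell by 0.70 against sHFD (SE 0.25, adjusted p = 0.0469), a call lost under both scalings. The repressor E2f7, cyclin A2 (Ccna2), which acts from S phase into G2, and Atad5, which unloads Pcna, also rose against sHFD (log2 1.04, 0.80 and 0.82, adjusted p = 0.0213, 0.0204 and 0.0427), calls that were lost without sHFD replicate 1, sHFD replicate 3 or HFD replicate 2, Atad5 also without HFD replicate 1 and, like E2f7, without HFD replicate 3. The 5 calls of this list against ND, from Pola2 to Orc6, were all lost without ND replicate 3, HFD replicate 1 or HFD replicate 2. All genes called fell there from 1484 to 39, 127 and 31. Over the 16 alternatives Pola2 kept its call against ND in 13, Rpa3 in 10, Orc6 in 6 and Rfc2 and Rnaseh2a in 4 each. Of the 9 fits that left out a library, Orc6 passed in 2 and Rfc2 and Rnaseh2a in 1 each.

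**Figure D3:**
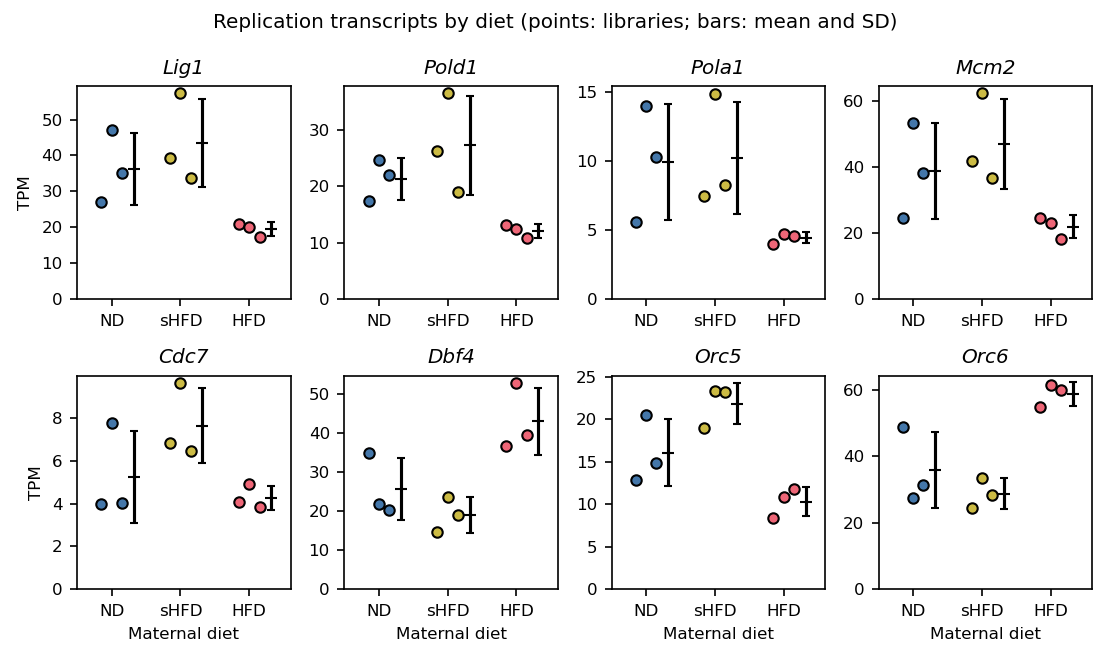
TPM of 4 of the 39 genes (top row) and of 4 origin and kinase genes from the list of other replication genes (bottom row) in each library (points) by maternal diet, with mean and SD of 3 libraries (bars); all axes start at 0. Lig1, Pold1 and Pola1 are below every ND and sHFD library in all 3 HFD libraries, and Dbf4 and Orc6 are above them.

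Most mitosis transcripts ran the other way from the 39 genes. Of 30 genes of spindle, mitotic kinases and cytokinesis, 16 were higher and 0 lower in HFD than in sHFD, or 53.3% higher against 10.3% of all genes. Against ND 11 were higher and 0 lower, or 36.7% higher against 1.28% of all genes. Median-ratio scaling gave 18 higher in each comparison, where all genes gave 2597 against sHFD and 668 against ND. Quantile normalization gave 19 and 15, where all genes gave 2401 and 427, and 0 were lower under either scaling. Of the 30, 5 had a log2 fold change below 0 against sHFD and 4 against ND. Ttk lay lower in every HFD library than in every sHFD library (log2 -0.63, adjusted p = 0.0676). Against sHFD 1 mitosis gene was called lower with only HFD and sHFD in the fit, with the block, or without ND replicate 1 or ND replicate 2. The calls against ND were lost without ND replicate 3, HFD replicate 1 or HFD replicate 2, where higher calls over all genes fell from 175 to 5, 10 and 4. Against sHFD 7 were higher without sHFD replicate 1, sHFD replicate 3 or HFD replicate 2, where higher calls over all genes fell from 1406 to 642, 788 and 738. Their mean log2(TPM + 1) was 4.98, 5.16 and 4.69 in HFD replicates 1 to 3, 4.24, 4.78 and 4.24 in sHFD and 4.46, 4.48 and 4.14 in ND. The mean of the 39 replication genes was 4.10, 4.16 and 3.86 in HFD, 4.37, 4.95 and 4.29 in sHFD and 4.1, 4.73 and 4.4 in ND. Replication minus mitosis was thus -0.89, -0.99 and -0.83 in HFD, 0.13, 0.17 and 0.05 in sHFD and -0.36, 0.25 and 0.26 in ND. HFD stood apart from all other libraries in this difference and ND replicate 1 lay between; sHFD replicate 2, high in both lists, did not stand out. In the promoter table the E2F letters matched 1 of 26 mitosis promoters and the letters TTTGAA, the core of the cell-cycle homology region, matched 20 of 26, or 76.9%, against 6 of the 33 replication promoters and 14.3% of tested genes.

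**Figure D4:**
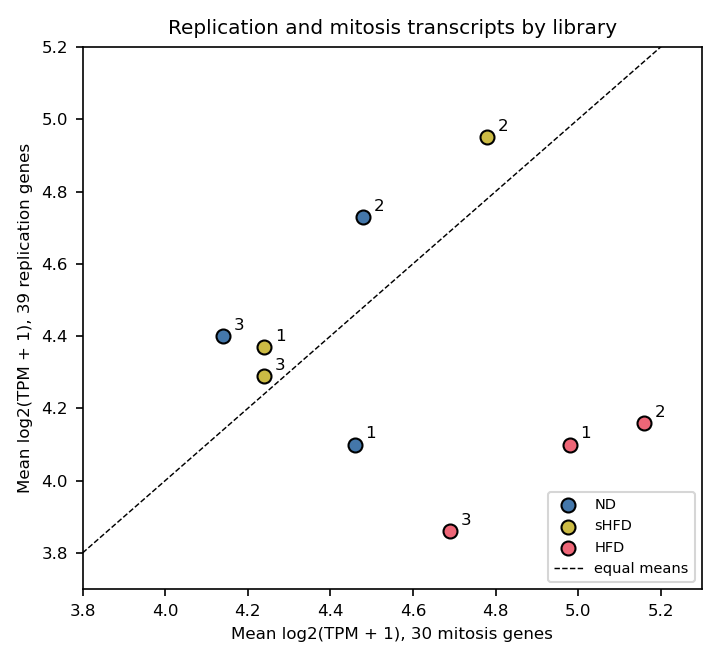
Mean log2(TPM + 1) of the 39 replication genes against that of 30 mitosis genes, with 1 point for each library (number: replicate) and a dashed line where the means are equal. The 3 HFD libraries lie 0.83 to 0.99 below the line, ND replicate 1 lies 0.36 below it and the other 5 lie above it.

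Other lists moved with the diets alongside the replication genes. Of all genes 23.9% were lower and 10.3% higher in HFD than in sHFD. Against ND the shares were 9.59% lower and 1.28% higher. Of 5 epicardium markers, 2 were higher and 1 lower in HFD than in sHFD, and 1 higher and 1 lower than in ND. That list was not run under the alternatives. Against sHFD 6 of 10 macrophage and leukocyte markers were lower in HFD (4 without sHFD replicate 2). All 10 macrophage and leukocyte markers were lower in HFD than in ND (6 under median-ratio scaling, 5 under quantile normalization, 3 without HFD replicate 1 and 0 without ND replicate 3 or HFD replicate 2), with summed levels of 249 to 282 TPM in HFD, 342 to 436 TPM in sHFD and 439 to 627 TPM in ND, and 0 of them at 0 in any library. The 6 red cell genes summed to 4250 to 7710 TPM in HFD, 9300 to 13000 TPM in sHFD and 8040 to 18800 TPM in ND, with 5 lower in HFD than in sHFD and 1 lower than in ND. The 5 became 1 under median-ratio scaling, without the filter on low values, or without sHFD replicate 1, sHFD replicate 3, HFD replicate 2 or HFD replicate 3, and 3 without sHFD replicate 2 or with the replicate number as a block. The 1 against ND became 4 without ND replicate 1 and 0 without ND replicate 3, HFD replicate 1 or HFD replicate 2. Of 8 smooth muscle and pericyte markers 6 were lower in HFD than in sHFD and 4 lower than in ND, among them the pericyte genes Kcnj8 (log2 -1.44 and -1.28) and Rgs5 (log2 -0.99 and -1.04). The smooth muscle genes Acta2 and Tagln did not fall with them. Their log2 fold changes were -0.34 and 0.01 against sHFD and 0.51 and 0.26 against ND, and none passed. Tagln was higher in every HFD library than in every ND library. These 8 summed to 1370 to 1600 TPM in HFD, 1670 to 2440 TPM in sHFD and 1290 to 1540 TPM in ND. Their count against sHFD was 4 under median-ratio scaling and 3 without sHFD replicate 1, sHFD replicate 2, HFD replicate 1 or HFD replicate 2. Against ND it was 2 under median-ratio scaling, without any 1 sHFD library or with the block, and 1 without ND replicate 2, ND replicate 3, HFD replicate 1 or HFD replicate 2. The 14 immediate-early and heat-shock genes, which cells switch on quickly under stress, summed to 7500, 7000 and 11500 TPM in HFD, 1960, 2020 and 2170 TPM in sHFD and 10000, 2070 and 5100 TPM in ND. All 14 were higher in HFD than in sHFD. Against ND 0 passed, with 6 at an unadjusted p under 0.05, as were 29.8% of all genes. Between sHFD and ND 0 passed, with 11 at an unadjusted p under 0.05, against 7.36% of all genes. All 14 log2 fold changes there were below 0. Without ND replicate 2, 10 were lower in sHFD than in ND, where lower calls over all genes rose from 1 to 138. Without ND replicate 1, 9 of the 14 were higher in HFD than in ND (median log2 1.28), and with the replicate number as a block 2 were. ND replicate 1, the ND library with the lowest replication levels, was thus the ND library with the highest level of these genes. Without ND replicate 3, HFD replicate 1 or HFD replicate 2, lower calls over all genes against ND fell from 1309 to 34, 117 and 27. The part of these lists in the replication result was not tested.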

How the data were processed

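The authors deposited 1 table of TPM values for 18738 genes, per the file headers. Its 9 columns total 999999 to 1000001 TPM. The submitters' processing notes list RSEM 1.3.1 and GRCm38 without saying what each was used for; aligner and annotation: not given in the sources used here. Libraries were made from mRNA, per the labels' protocols. Columns named CON, MID and HIGH were read as ND, sHFD and HFD with their replicate numbers. The labels do not tie a diet's libraries to separate animals or litters, so p-values measure only how far these samples spread, and that spread may be technical.

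Values were taken as log2(TPM + 1), which understates changes of low genes. The 13655 genes averaging 1 TPM or more were tested, among them all 39 genes described. A linear model with a term for diet used all 9 libraries (limma 3.58.1, R 4.3.3, intensity trend). Two-sided p-values were adjusted by the Benjamini-Hochberg method over all genes tested. An exact test of 3 against 3 libraries cannot go below 0.1, and none was used. Values per library are given for genes past the threshold, for the most abundant gene of each role and for those with the largest and smallest change against ND. Of the other replication genes called, up to 5 per direction are named, except 1 that is not reported here. The 39 genes and the lists were chosen with earlier results of these data known. Promoters and positions came from RefSeq tables of GRCm38.p6, matched on gene identifiers.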

Additional observations from a re-analysis of the deposited data

How the results depend on the processing

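In HFD against ND the count of 1 replication gene became 2 with a pseudocount of 0.1, 4 with the replicate number as a block and 0 without the filter on low values, under median-ratio scaling, under quantile normalization or with only these diets in the fit. It ran from 0 to 14 with a library left out. All genes called, 1484, became 763 without the filter, 456 with these diets only and 31 (without HFD replicate 2) to 3837 (without ND replicate 1) with a library left out. In HFD against sHFD the 14 replication genes became 9 without the filter, 8 under quantile normalization and 4 to 17 with a library left out, and 21 with the block; the 4665 genes called overall ran from 2693 to 5461 with a library left out. In sHFD against ND 0 replication genes passed under each alternative run, and the 1 gene called overall became 0 with a pseudocount of 0.1, without the filter or with the block, 2 with these diets only and 0 to 358 with a library left out. Fewer libraries or another number of genes tested also alter the adjustment; the cause of each shift was not tested. No log2 fold change of a called replication gene changed sign under any alternative. The labels do not say whether equal replicate numbers share a litter or day. Over the genes tested, deviations from the diet mean correlated at -0.29 to 0.41 between same-numbered libraries and at -0.35 to 0.35 between others. These ranges do not settle whether the libraries are paired. Of the 39 genes, replicate 2 was the highest library of its diet in 34 for ND, 38 for sHFD and 22 for HFD. The unknown depth leaves the precision of genes at a few TPM, such as Cdc6 and Gins3, unstated.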
